A study of Danio rerio with 6 samples.

Results

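The constitutive subunits of the proteasome were compared between heart ventricles of old and young zebrafish. Members were chosen by symbol: every gene named *psma*, *psmc* or *psmd* with a number, and *psmb1* to *psmb7*, with or without a copy letter. The rule found 40 of the 32520 genes in the count table, 16 of the core particle and 24 of the regulatory particle, and it used no measured value. It leaves out the core subunits that are induced in immune cells, and regulatory particle subunits with other symbols, such as *adrm1* and *sem1*. Both are described further on as pathway genes.

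RNA-Seq libraries were made from ventricles of fish aged 4 years (old) and 7 months (young), all wild-type offspring of matings between the AB and TU strains. Each age had 3 libraries, numbered 1, 3 and 5 for old and 1, 2 and 5 for young fish, and these had been picked from a larger set by RNA integrity. The sex of the fish, and whether a library came from a single ventricle or a pool, are not given in the sources used here, so the p-values measure only the spread between these libraries. Library values are given throughout in the order of these replicate numbers.

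The proteasome is the barrel-shaped protease that degrades most short-lived and damaged proteins of the cytosol and nucleus after these have been tagged with ubiquitin. Its core particle is a stack of rings, with alpha subunits forming the outer rings that gate the entry and beta subunits forming the inner rings that hold the cutting sites. The regulatory particle sits on the core, binds ubiquitin-tagged proteins, removes the tag and feeds the unfolded chain into the barrel, and the beating heart muscle relies on this machine for turnover of its sarcomere proteins.

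The libraries held 17742389 to 22547518 counts, of which 0.131 to 0.195% fell on the 40 subunits. CPM, the counts relative to the library total scaled by TMM factors, are the unit of all levels, and the lowest count of any subunit in any library was 70, so all 40 passed every filter on low counts. Markers of heart muscle were abundant in both ages, with summed levels of 69291 to 86379 CPM in old and 76805 to 99708 CPM in young libraries. Of the testis or ovary markers, *ddx4* had at most 1 count in a library and *zp3b* had 2 to 8 counts. For *zp3b* (log2 fold change -1.06, adjusted p = 0.54, edgeR) each old library lay below each young one, as for 9.66% of all genes tested. Of the 6 muscle markers 5 were fitted lower in old, with a median log2 fold change of -0.26 and 0 past the threshold of edgeR. Among these 5, *tnnt2* ENSDARG00000100694 (-0.25) had only 9 to 80 counts in a library. An unadjusted p under 0.05 was reached by 2 of the 6 markers, against 15.1% of all genes tested. For *myh7* (-0.41, adjusted p = 0.18, edgeR), a myosin heavy chain, each old library lay below each young one. Summed leukocyte markers spanned 65.9 to 382 CPM in old and 32.7 to 76.2 CPM in young libraries. Of these sums *marco* alone gave 213, 13.4 and 91.6 CPM in old and 32.0, 9.18 and 5.57 CPM in young libraries. Of the 12 markers above the floor, several of them copies of *mfap4*, 11 were fitted higher in old and 1, *lcp1*, passed the threshold (adjusted p = 0.048, edgeR). The 3 erythrocyte markers were all fitted lower in old, with sums of 335 to 377 CPM against 700.4 to 1920 CPM, and 1, *hbaa1*, passed the threshold (adjusted p = 0.031, edgeR). In bulk tissue, fewer cells of a type and less RNA per cell cannot be told apart.

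None of the 40 subunits passed the threshold of an adjusted p under 0.05 in the edgeR quasi-likelihood test, which called 0.858% of the 24835 genes tested, 0.519% as higher and 0.338% as lower in old. Fits of all 16 core genes were nevertheless higher in old, and their median log2 fold change was 0.23, or 1.17-fold. Of the 24 regulatory particle genes, 16 were fitted higher and 8 lower, with a median of 0.08, or 1.06-fold. Scaled by library size alone, which moved the median of well-counted genes by 0.18 on the log2 scale, 16 core genes and 21 regulatory genes were higher. Over all genes tested, 51.3% were fitted higher and the median was 0.02, and over the 14864 genes kept by edgeR's filter on low counts 47% were higher and the median was -0.03. An unadjusted p under 0.05 was reached by 1 core gene, higher in old, and 0 regulatory genes, against 15.1% of all genes (8.64% higher and 6.5% lower). DESeq2's Wald test also called 0 of the 40, while calling 7.01% of the genes to which it gave an adjusted p.

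The fitted differences were small. In the TMM-scaled edgeR fit the 95% interval of each of the 40 genes left out a 2-fold change in either direction, with outermost bounds of 0.779-fold and 1.88-fold in the core and 0.548-fold and 1.71-fold in the regulatory particle. The interval contained 0 for 39 of the 40 genes. With library size alone the intervals of *psma2a* and *psma8* reached 2-fold, with the replicate number as a block those of 14 genes did, and with 1 library left out those of 0 to 2 genes did. In the block fit only replicates 1 and 5, whose numbers occur in both ages, bear on the age contrast.

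**Figure D1:**
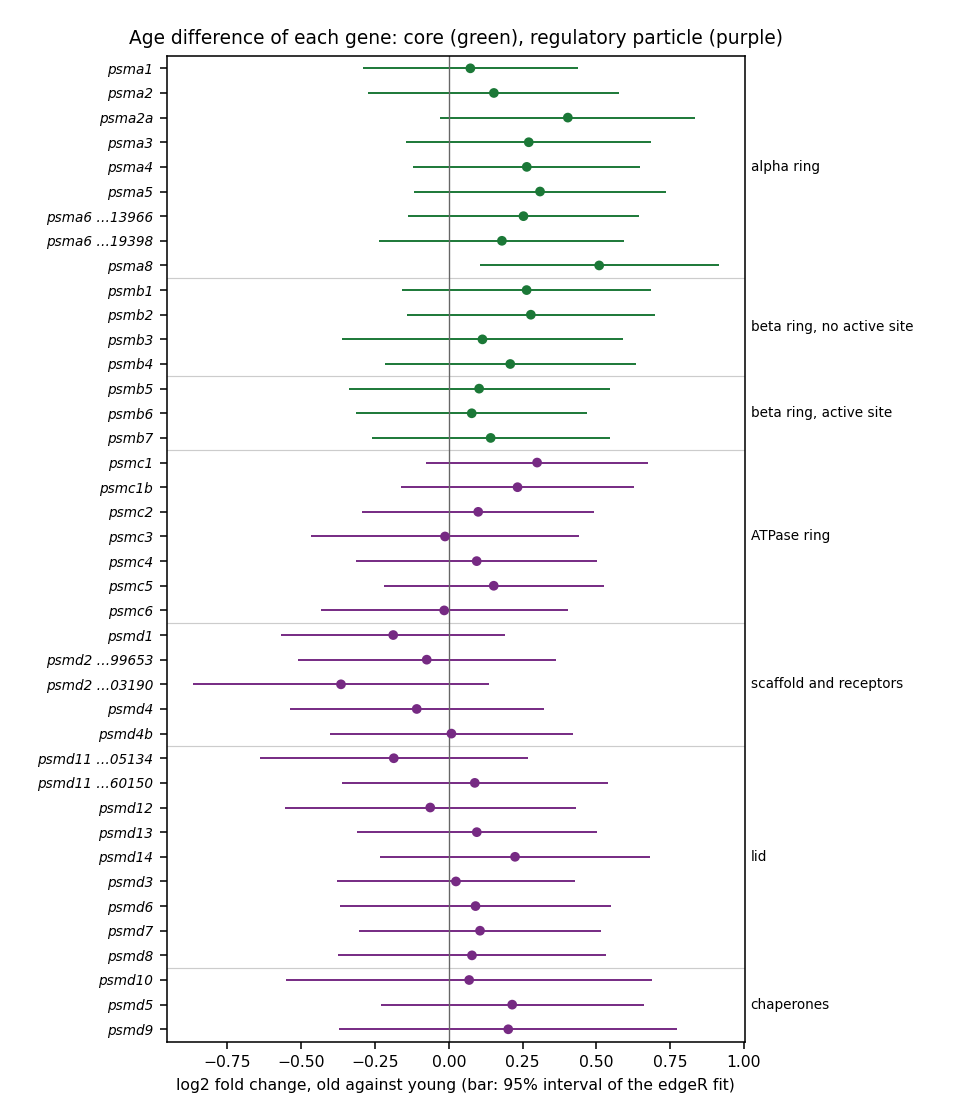
Fitted log2 fold change of each subunit gene, old against young (points), with its 95% interval (bars), core particle in green and regulatory particle in purple. All 16 core points lie to the right of 0, those of the regulatory particle range from -0.37 to 0.30, and only the bar of *psma8* misses 0.

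The alpha ring had the highest median of the subunit groups, 0.26 over 9 genes, all 9 fitted higher. The gene with the smallest p among all 40 was *psma8* (ENSDARG00000010965), an alpha ring subunit that RefSeq (GRCz12tu) also lists under the name *psma7*. The mammalian gene of that symbol, *PSMA8*, is known from testis. *psma8* stood at 77.6, 57.55 and 75.2 CPM in old and 45.5, 53.4 and 48.9 CPM in young libraries. Each old library was above each young one, the means were 70.1 ± 11.0 and 49.3 ± 3.95 CPM (SD, n = 3 each), and the log2 fold change was 0.51 (SE 0.18, 95% interval 0.11 to 0.91). After adjustment over all genes the difference did not pass (adjusted p = 0.22, edgeR). With 1 library left out the log2 fold change lay between 0.43 and 0.63, and no core gene reached an unadjusted p under 0.05 without old replicate 1, old replicate 5 or young replicate 1.

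*psma2a* (ENSDARG00000040121) is one of the copies of the alpha ring subunit *psma2*. It measured 24.8, 18.4 and 24.3 CPM in old libraries and 15.7, 17.97 and 17.4 CPM in young libraries, a log2 fold change of 0.40 (SE 0.19, adjusted p = 0.37). The groups of *psma2a* did not overlap. Its partner *psma2* (ENSDARG00000035679) did overlap, at 33.6, 27.2 and 29.9 CPM against 22.7, 31.1 and 27.8 CPM, with a log2 fold change of 0.15 (adjusted p = 0.70).

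Among the remaining alpha ring genes, *psma5* measured 59.3, 41.1 and 49.8 CPM in old and 37.05, 44.3 and 39.9 CPM in young libraries (log2 fold change 0.31, adjusted p = 0.50). For *psma4*, the levels were 51.8, 47.5 and 44.5 CPM against 36.4, 45.3 and 37.9 CPM (0.26, adjusted p = 0.53). In both genes young replicate 2 reached into the old range. The pair of genes named *psma6* lay close together: ENSDARG00000013966 stood at 23.7, 21.0 and 24.8 CPM in old against 18.02, 20.6 and 19.6 CPM in young, without overlap, and a log2 fold change of 0.25. Its copy ENSDARG00000019398 stood at 23.2, 21.4 and 23.1 CPM against 16.7, 22.5 and 20.5 CPM, with overlap, and 0.18. *psma3* and *psma1* were fitted at 0.27 and 0.07.

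The beta ring divides into subunits that cut and subunits that do not. The 4 without an active site (*psmb1* to *psmb4*) had a median log2 fold change of 0.24, from 0.11 for *psmb3* to 0.28 for *psmb2*. *psmb2* measured 56.4, 45.4 and 47.1 CPM in old and 35.1, 48.0 and 39.7 CPM in young libraries (adjusted p = 0.54), so that young replicate 2 lay above 2 of the old libraries.

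The 3 cutting subunits had the lowest median in the core, 0.10. *psmb5*, which cuts after hydrophobic residues, measured 86.1, 68.2 and 61.4 CPM in old and 56.5, 77.9 and 66.4 CPM in young libraries (log2 fold change 0.10, SE 0.20, adjusted p = 0.82). *psmb6*, which cuts after acidic residues, measured 45.0, 43.4 and 43.0 CPM against 34.9, 46.5 and 43.1 CPM (0.08, SE 0.17, adjusted p = 0.85). The levels of *psmb7*, which cuts after basic residues, were 55.4, 43.8 and 48.1 CPM against 38.7, 49.8 and 45.1 CPM (0.14, SE 0.18, adjusted p = 0.70). For all of them the ages overlapped, and the difference between cutting and other core subunits was not tested.

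**Figure D2:**
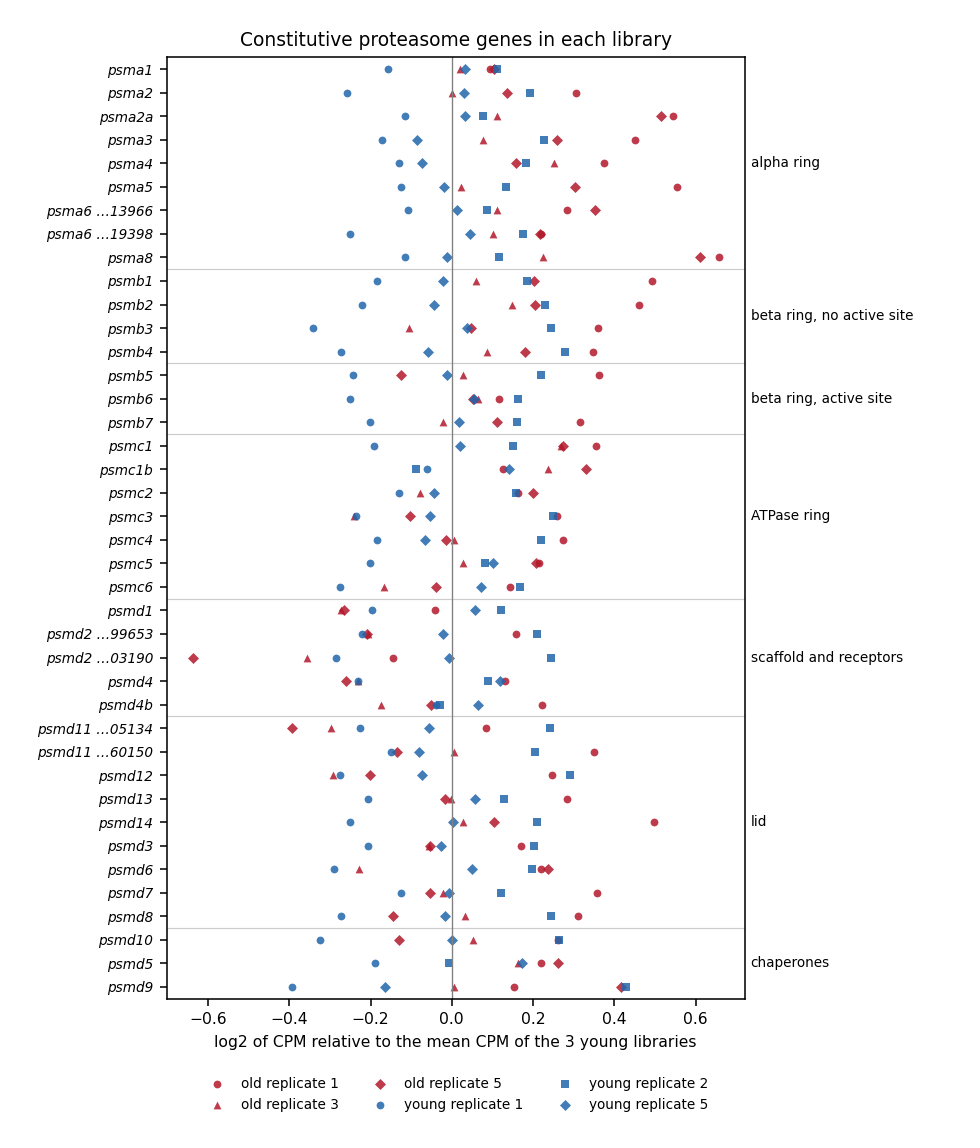
Level of each subunit gene in each library relative to its mean over the 3 young libraries, on a log2 scale (red for old, blue for young, marker shape for the replicate number). Young replicate 1 was the lowest library for 32 of the 40 genes and old replicate 1 the highest for 24.

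The members largely shared their lowest and highest libraries. Young replicate 1 was the lowest library for 16 of 16 core genes and 16 of 24 regulatory genes, or 80% of all members, against 15.9% of the 14864 genes kept by the filter on low counts. Old replicate 1 was the highest for 13 core and 11 regulatory genes, 60% of the members against 17.1% of the same genes. Young replicate 2 was the highest for another 11. Without old replicate 1 the core median was 0.15 with 14 of 16 fitted higher, and without young replicate 1 it was 0.14 with 14 of 16. In the regulatory particle, leaving out old replicate 1 gave 8 of 24 fitted higher and a median of -0.05, and leaving out young replicate 1 gave 11 of 24 and -0.02.

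Old replicate 1 was also the library with the highest sum of leukocyte markers, 382 CPM, while young replicate 1, lowest in most subunits, had the highest sum of the young libraries, 76.2 CPM. Young replicate 1 also had the highest erythrocyte sum, 1920 CPM, against 700.4 and 995 CPM in young replicates 2 and 5. Its atrium markers summed to 434 CPM, against 133 to 215 CPM in the other libraries. There *myh6* ENSDARG00000090637 stood at 301 CPM, while the other *myh6* IDs were not highest in that library. Mitochondrial genes took 11.3, 13.9 and 13.5% of the counts in old and 16.1, 14.9 and 17.9% in young libraries, so that each old library lay below each young one. The part of cell composition or RNA quality in the levels of the subunits was not tested.

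The ATPase ring at the base of the regulatory particle unfolds the substrate and threads it into the core. Of its 7 genes, 5 were fitted higher, with a median log2 fold change of 0.10. *psmc1* (ENSDARG00000030537) had the smallest p in the regulatory particle, with 51.3, 48.2 and 48.4 CPM in old and 35.1, 44.45 and 40.6 CPM in young libraries, a log2 fold change of 0.30 (SE 0.17, adjusted p = 0.45). It was the only one of the 24 genes with each old library above each young one (4.17%), where 10.4% of all genes tested and 11.8% of those kept by the filter on low counts had such a pattern. In the core the share was 3 of 16 (*psma2a*, *psma6* ENSDARG00000013966 and *psma8*), and over all 40 genes it was 10%, close to the background. None of the 40 had each old library below each young one, where 9.66% of all genes and 13.7% of those kept by the filter did.

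The copy *psmc1b* (ENSDARG00000043561) stood at 20.6, 22.2 and 23.7 CPM against 18.1, 17.7 and 20.8 CPM, with a log2 fold change of 0.23 (adjusted p = 0.58). Old replicate 1 was just below young replicate 5 there. The other ATPases were fitted between -0.02 for *psmc6* and 0.15 for *psmc5*.

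The genes of the scaffold and the ubiquitin receptors of the base had the lowest median of the subunit groups, -0.11, with 1 of 5 fitted higher. *psmd1*, the large scaffold subunit, measured 71.7, 61.0 and 61.3 CPM in old and 64.3, 80.1 and 76.6 CPM in young libraries, a log2 fold change of -0.19 (SE 0.17, adjusted p = 0.62). *psmd2*, which docks shuttle proteins carrying tagged substrates, is listed under a pair of gene IDs. Whether these are separate genes or a duplicate in the genome assembly was not settled here. ENSDARG00000103190 had 13.1, 11.3 and 9.34 CPM in old against 11.9, 17.2 and 14.5 CPM in young, and with -0.37 (SE 0.22, adjusted p = 0.50) the largest negative log2 fold change of all 40 genes. ENSDARG00000099653 had 35.9, 27.9 and 27.8 CPM against 27.6, 37.2 and 31.7 CPM, and a log2 fold change of -0.07.

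*psmd4* (ENSDARG00000101295), a subunit that binds ubiquitin chains, stood at 38.4, 29.9 and 29.3 CPM in old and 29.9, 37.3 and 38.1 CPM in young libraries, a log2 fold change of -0.11. Its copy *psmd4b* (ENSDARG00000023279) stood at 24.02, 18.3 and 19.9 CPM against 20.03, 20.2 and 21.5 CPM, and 0.01. In all of these receptor and scaffold genes old and young libraries overlapped.

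The lid removes the ubiquitin chain before the substrate enters. 7 of its 9 genes were fitted higher, with a median of 0.09. *psmd14*, the enzyme that cuts off the chain, measured 43.3, 31.3 and 33.0 CPM in old and 25.8, 35.5 and 30.8 CPM in young libraries (log2 fold change 0.22, SE 0.20, adjusted p = 0.62). The lid subunit *psmd11* helps to clamp the lid to the core and has a pair of genes of the same name. ENSDARG00000005134 measured 49.4, 37.9 and 35.45 CPM against 39.8, 55.0 and 44.8 CPM (log2 fold change -0.19), and ENSDARG00000060150 29.0, 22.8 and 20.7 CPM against 20.5, 26.2 and 21.5 CPM (0.09). The other 6 lid genes were fitted between -0.06 for *psmd12* and 0.11 for *psmd7*.

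The genes *psmd5*, *psmd9* and *psmd10* carry the same prefix but encode chaperones that assemble the base and leave it when it is complete. *psmd5* stood at 11.0, 10.5 and 11.3 CPM in old and 8.26, 9.37 and 10.6 CPM in young libraries (log2 fold change 0.21, adjusted p = 0.62). *psmd9* stood at 12.3, 11.1 and 14.8 CPM against 8.41, 14.9 and 9.86 CPM (0.20, adjusted p = 0.70). *psmd10* stood at 5.26, 4.55 and 4.01 CPM against 3.50, 5.27 and 4.39 CPM (0.07, adjusted p = 0.92). All 3 were fitted higher and none passed the test.

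**Figure D3:**
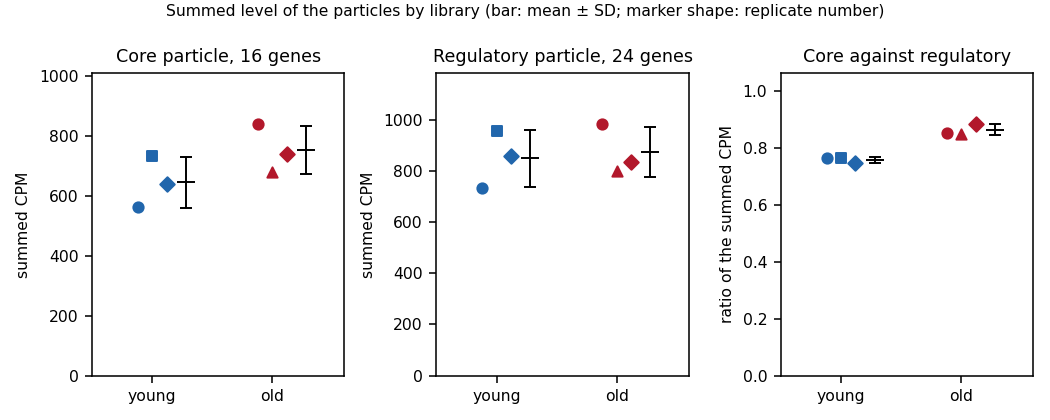
Summed CPM of the core particle (16 genes), of the regulatory particle (24 genes) and the ratio of these sums in each library, with mean and SD per age. The ages overlap in both sums, and the ratio lies between 0.849 and 0.884 in old and between 0.746 and 0.764 in young libraries.

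Summed over its genes, the core particle stood at 840.2, 678.9 and 738.1 CPM in old and 561.2, 732.2 and 639.5 CPM in young libraries, or 752 ± 81.6 against 644 ± 85.6 CPM. The regulatory particle stood at 985.0, 799.8 and 834.9 CPM against 735.1, 958.1 and 857.6 CPM, or 873 ± 98.4 against 850.3 ± 112 CPM. The ratios of the means, old over young, were 1.17 and 1.03, and in both sums the ages overlapped. With library size alone they were 1.33 and 1.17, and the core sums no longer overlapped.

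Within a library the particles moved together, so their ratio varied far less than either sum. Core CPM per regulatory CPM was 0.853, 0.849 and 0.884 in old libraries and 0.763, 0.764 and 0.746 in young ones, with means of 0.862 ± 0.0192 and 0.758 ± 0.0104 (SD, n = 3 each). The ratio was 1.14 times higher in old, and each old library lay above each young one. It does not depend on library scaling, and it is not a ratio of molecules, since longer genes give more counts. Leaving out any 1 library gave 1.12 to 1.15. Among alternatives chosen after the data were seen, leaving *psma8* out of the core gave 1.12, leaving the chaperones out of the regulatory particle gave 1.14, and geometric means, in which each gene weighs the same, gave 1.13. The alpha ring alone gave 1.18 and the beta ring alone 1.097, each against the whole regulatory particle. In each of these settings the old libraries lay above the young ones. The symbol rule used no measured value, but results of these data were known when it was applied. The ratio is therefore a description with no test.

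Ratios inside the particles overlapped between the ages. The alpha ring per beta ring stood at 0.977, 0.984 and 1.09 in old against 1.00, 0.900 and 0.936 in young libraries, and the ATPase ring per lid at 0.878, 0.959 and 1.02 against 0.919, 0.871 and 0.923.

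The ratio of the particles was then broken down by gene, with each count divided by the library's count over all 40 subunits. On this scale 12 of 16 core genes and 6 of 24 regulatory genes were higher in old. Each old library lay above each young one for 6 core genes (*psma2a*, *psma3*, *psma4*, *psma8*, *psmb1* and *psmb2*) and for *psmc1*, where 7.2% of all genes did so on the same scale. Each old library lay below each young one for 7 regulatory genes (*psmc6*, *psmd1*, *psmd3*, *psmd4*, both *psmd2* IDs and *psmd11* ENSDARG00000005134) and 0 core genes, where 12.4% of all genes did. *psmd1*, as an example, took 39.3, 41.3 and 39.0 of each 1000 subunit reads in old libraries and 49.6, 47.4 and 51.2 in young libraries. *psma8* took 42.5, 38.9 and 47.8 against 35.1, 31.6 and 32.6. Shares of a fixed whole are tied to each other, so these counts are a description of how the members divide. They restate the ratio of the particles and are no separate support for it. Dividing by the subunit count takes out the level that subunits share within a library, and not that of other genes. The percentages over all genes are therefore not a like background.

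**Figure D4:**
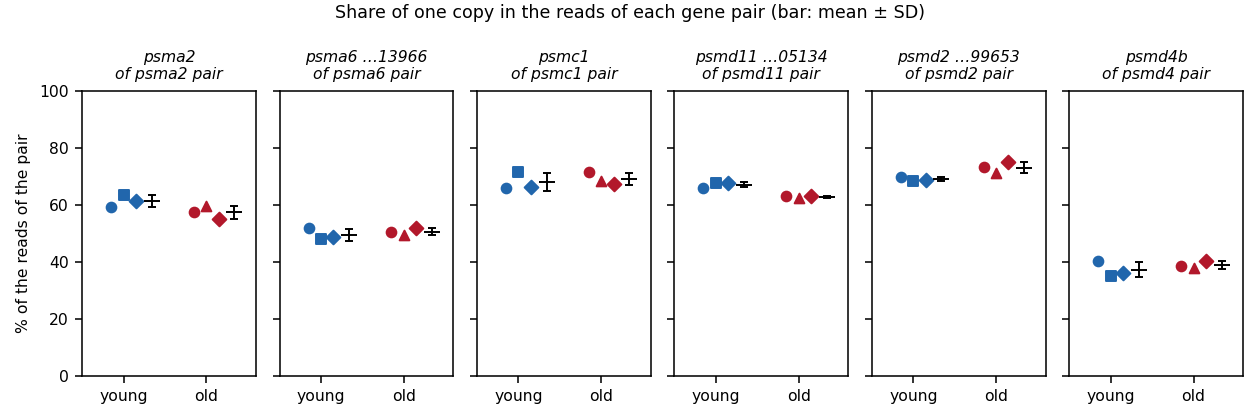
Share of the named copy in the reads of each pair of subunit genes, in percent, for each library. In the pairs *psmd11* and *psmd2* old and young libraries do not overlap, with means of 62.9 against 67.1% and of 73.1 against 69.0%.

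Several subunits are listed under a pair of gene IDs. The 6 such pairs were compared by the share that 1 copy takes of the pair's reads, which is also free of library scaling. With 3 libraries against 3 an exact permutation test cannot go below p = 0.1. For *psmd11*, ENSDARG00000005134 took 63.0, 62.4 and 63.1% in old and 66.0, 67.8 and 67.6% in young libraries, a difference of -4.25 percentage points, old minus young, between means of 62.9 ± 0.376 and 67.1 ± 0.947%. The groups did not overlap (exact two-sided permutation p = 0.1, 0.3 after Benjamini-Hochberg adjustment over the 6 pairs).

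For *psmd2*, ENSDARG00000099653 took 73.2, 71.1 and 74.9% in old and 69.8, 68.4 and 68.7% in young libraries, a difference of 4.08 points, again without overlap (exact permutation p = 0.1, adjusted 0.3). The other 4 pairs overlapped. *psma2* took 57.4 ± 2.26% of its pair in old against 61.3 ± 2.12% in young (exact permutation p = 0.2, adjusted 0.4), and *psma6* ENSDARG00000013966 took 50.6 against 49.5%, *psmc1* 69.0 against 67.9% and *psmd4b* 38.9 against 37.1% (exact permutation p = 0.5, 0.6 and 0.3). Reads that mapped to several places had been discarded, so the shares of copies with near-identical stretches are uncertain.

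**Figure D5:**
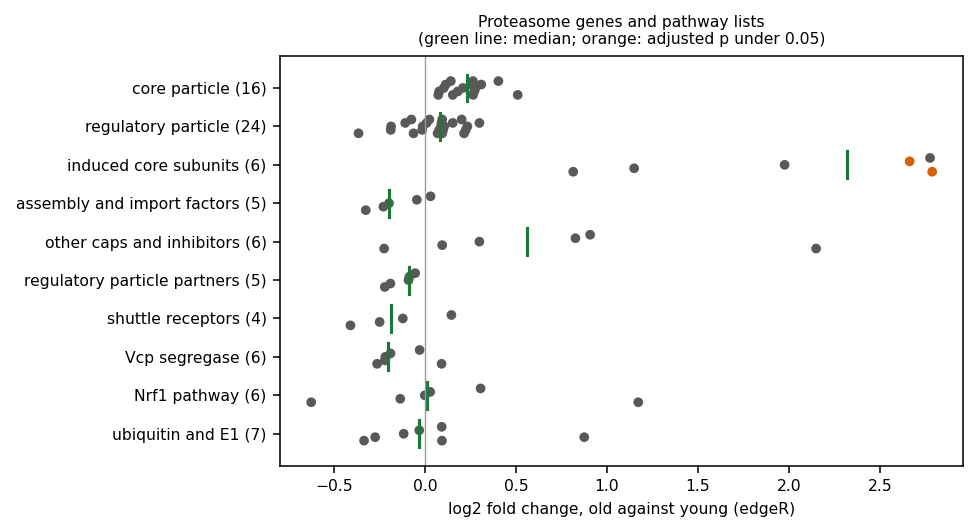
Fitted log2 fold change, old against young, of the subunits and of 8 lists of pathway genes (points, 1 per gene), with the median of each list as a line and genes past the threshold in orange. The induced core subunits have a median of 2.32, the core particle 0.23 and the regulatory particle 0.08.

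Genes that assemble, cap, feed or regulate the proteasome were read from the same fit as 8 lists. Of 39 such genes outside the induced subunits, 14 were fitted higher and 25 lower, with a median log2 fold change of -0.09. In edgeR's test 0 passed the threshold and 5 reached an unadjusted p under 0.05, against 15.1% of all genes tested. The induced core list holds beta subunits, some of which replace the cutting subunits in immune cells and after interferon, and the alpha subunit gene *psma6l*. 6 of its genes were above the floor, all 6 were fitted higher with a median of 2.32, and 2 passed the test, against 0.858% of all genes tested. DESeq2 called all 6, against 7.01% of the genes to which it gave an adjusted p. In limma-voom 0 were called, and edgeR called 1 with a minimum of 10 reads, under filterByExpr or with bias-adjusted deviances.

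The first was *psmb8* (ENSDARG00000001303), which takes the place of *psmb5*, at 49.5, 15.5 and 26.1 CPM in old and 2.75, 3.09 and 7.35 CPM in young libraries, a log2 fold change of 2.79 (SE 0.49, adjusted p = 0.043, edgeR). *psmb12*, a further induced beta subunit of fish, stood at 16.5, 7.495 and 7.64 CPM against 1.80, 1.64 and 1.53 CPM, and rose by 2.66 on the log2 scale (SE 0.36, adjusted p = 0.018). Leaving out 1 library gave 0 to 4 calls among the induced subunits, 0 of them without young replicate 1 and 0 without young replicate 2. Set beside its constitutive counterpart, *psmb8* held 36.5, 18.5 and 29.8% of the reads of *psmb8* and *psmb5* together in old and 4.65, 3.82 and 9.97% in young libraries. *psmb9* likewise held 24.6, 7.32 and 11.4% of the reads with *psmb6* against 4.78, 1.74 and 1.97%. Old replicate 1 was the highest in both, as it was in the summed leukocyte markers. The part of leukocyte number in these shares was not tested.

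The caps and inhibitors that bind the core instead of the regulatory particle had a median of 0.56, with 5 of 6 fitted higher. In edgeR's test 0 passed the threshold, as 0.858% of all genes tested did, and 3 had an unadjusted p under 0.05, against 15.1%. DESeq2's Wald test called 3 of the 6, against 7.01% of the genes to which it gave an adjusted p. With library size alone edgeR called 1. *psme1*, a subunit of the interferon-induced cap, came nearest, at 66.2, 43.1 and 54.3 CPM in old and 28.3, 30.0 and 28.9 CPM in young libraries (log2 fold change 0.91, adjusted p = 0.073, edgeR). *psme2* was fitted at 0.83, *psmf1* at 0.30 and *psme3* at 0.09. The pair of IDs named *psme4* differed, with -0.22 for ENSDARG00000018742 and 2.15 for ENSDARG00000087911. The latter was uneven, at 14.5, 56.3 and 111 CPM in old and 12.5, 4.40 and 24.1 CPM in young libraries, with overlap.

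The assembly and import factors had a median of -0.20 with 1 of 5 fitted higher, and *psmg2*, a chaperone of the alpha ring, had the smallest p there (log2 fold change -0.33, adjusted p = 0.52). For *psmg2* each old library lay below each young one, by a narrow margin, as for 9.66% of all genes tested. Another list was drawn around Nrf1, the factor that induces proteasome genes when the proteasome is impaired in mammals. It also holds *nfe2l2* and *nfe2l2b*, genes of the related factor Nrf2, and its 6 genes together had a median of 0.01. The value of *nfe2l2b* (1.17) rests on 2 to 20 counts per library. *nfe2l1b*, a zebrafish gene for Nrf1, measured 87.1, 52.6 and 42.3 CPM in old and 87.7, 115 and 77.9 CPM in young libraries, with overlap (-0.63, adjusted p = 0.33). The list's other Nrf1 gene, *nfe2l1* (ENSDARG00000030616), was fitted at -0.0008, with means of 12.57 CPM in old and 12.56 CPM in young libraries.

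Genes that deliver substrates had medians of -0.19 for the shuttle receptors (1 of 4 fitted higher) and -0.20 for the Vcp segregase that pulls tagged proteins out of complexes (1 of 6). A further list holds subunits and partners of the regulatory particle that the symbol rule does not match, and had a median of -0.09 (0 of 5 fitted higher). The subunits *adrm1* and *sem1* are among them, so the sums and the ratio of the particles leave these out. The shuttle receptor *ubqln4* stood at 135.51, 101 and 96.1 CPM in old and 135.58, 168 and 138 CPM in young libraries (log2 fold change -0.41, adjusted p = 0.35). Each old library thus lay below each young one, by a narrow margin, as for 9.66% of all genes tested. Such a pattern also held for *rad23b*, making 2 of 4 shuttle receptors, and for 2 of 6 Vcp genes (*nploc4* and *faf1*). Of the ubiquitin genes and the enzymes that activate ubiquitin, 3 of 7 were fitted higher, with a median of -0.03. *uba6*, one of these enzymes, had the smallest p in that list, with 3.81, 3.64 and 4.50 CPM in old against 2.05, 1.45 and 3.01 CPM in young libraries (0.88, adjusted p = 0.27).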

How the data were processed

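Poly(A)-selected, strand-specific libraries from 6 ventricle samples had been aligned by the authors to GRCz11 (Ensembl annotation) with STAR 2.5.4b. The deposited values are raw counts of uniquely mapped reads per gene from featureCounts 1.6.3, without normalization, and multi-mapping and multi-overlapping reads had been dropped. Names came from a table covering 29201 of the 32520 genes. Where it gives copies the same symbol they are named by ID.

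The 24835 genes with a minimum of 1 read in some library were scaled by TMM and fitted with the default quasi-likelihood functions of edgeR 4.0.16 in R 4.3.3, with age as the only factor and all 6 libraries. P-values were adjusted by Benjamini-Hochberg over all genes tested, with a threshold of 0.05. The quasi-likelihood test gives no standard error, so in edgeR fits the SE was derived as the absolute log2 fold change over the square root of the F statistic. The 95% interval was built from this SE with a t quantile. The study used DESeq2, run here (1.42.0) as an alternative, as was limma 3.58.1. Other alternatives were library size alone, DESeq2's size factors, stricter filters (10 reads in all, or filterByExpr), bias-adjusted deviances, a replicate block and each library left out. Exact permutation tests used scipy 1.17.1, figures matplotlib 3.10.9, and tables pandas 2.3.3. A floor of 3 counts was 0.124 to 0.161 CPM, which covers counting error only. Correlations between libraries ranged from 0.911 to 0.969, so none was a duplicate.

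Replicate numbers 1 and 5 occur in both ages, but deviations of same-numbered libraries correlated with -0.05 and 0.03 over 14864 genes, so they were not taken as pairs. Library values are given for the 5 subunits with the smallest p in each particle, the cutting subunits, paralogue pairs, chaperones and *psma8*. They are also given for pathway genes past the threshold or with the smallest p in their list. The exceptions are *psmg2*, *adrm1* and *nploc4*, which had the smallest p in their lists. The values of *psmb9*, *psme4*, *myh7*, *marco*, *lcp1*, *hbaa1* and *nfe2l2b* and the single *psmd1* and *psma8* shares were added as examples. Those of *myh6*, *zp3b*, *tnnt2* and *nfe2l1* were added likewise. The alternatives of the particle ratio were chosen after the data were seen. Earlier results of these data were known when the lists were chosen and the symbol rule was applied, although that rule used no measured value. Levels per kilobase, promoter motifs and sequences were not used here.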

Additional observations from a re-analysis of the deposited data

How the results depend on the processing

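No subunit passed the threshold in any of 14 alternative fits (lowest adjusted p 0.11, *psma8* with library size alone), and of 560 fitted subunit values 521 kept their sign. 23 of the 40 subunits, 13 of them core, never changed sign. Library size alone moved the median of all well-counted genes by 0.18 (log2), and then 21 of 24 regulatory genes were fitted higher and 8 core and 2 regulatory genes reached an unadjusted p under 0.05, against 1 and 0. Under filterByExpr 2 core genes did. The share of all genes at that p was counted only in the TMM-scaled fit, so these counts have no background beside them. Measured from the median of well-counted genes, the core median was 0.27 with library size alone and 0.26 in the TMM-scaled fit. The regulatory median was 0.12 in both. Signs reversed for *psmc3* (0.17 with library size alone, 0.015 under filterByExpr), *psmc6* (0.17 and 0.013), *psmd12* (0.12 with library size alone), *psmd2* ENSDARG00000099653 (0.11) and *psmd4* (0.077). The genes called of all genes numbered 213, and 65 with at least 10 reads, 111 under filterByExpr or bias-adjusted deviances, 1229 by DESeq2 and 94 by limma-voom. The induced core subunits had 1 call, not 2, with at least 10 reads, under filterByExpr and with bias-adjusted deviances, 6 by DESeq2 and 0 by limma-voom, and the caps had 1 with library size alone and 3 by DESeq2. The cause was not tested. Chosen later, the ratio of core to regulatory CPM was 1.18 with the alpha ring alone and 1.097 with the beta ring alone.

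The replicate block, although the numbers did not pair, gave 126 calls over all genes and medians of 0.37 (core) and 0.22 (regulatory). Old replicate 3 and young replicate 2 have no library of the same number in the other age, so the age contrast of this fit rests on replicates 1 and 5. These include old replicate 1 and young replicate 1, the highest and the lowest library for most subunits. With the block *psmc3* (0.22), *psmc6* (0.15), *psmd12* (0.20) and *psmd2* ENSDARG00000099653 (0.10) reversed.

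With 1 library left out, calls over all genes ranged from 19 to 412, those in the induced subunits from 0 to 4 (0 without young replicate 1 or young replicate 2), those in the caps from 0 to 1, core genes at an unadjusted p under 0.05 from 0 to 2, and regulatory genes fitted higher from 8 to 19. Log2 fold changes that reversed ranged from -0.027 to 0.25 for *psmb3*, -0.047 to 0.23 for *psmb5*, -0.027 to 0.17 for *psmb6*, -0.17 to 0.13 for *psmc3*, -0.0044 to 0.22 for *psmc4*, -0.13 to 0.076 for *psmc6*, -0.064 to 0.22 for *psmd10*, -0.063 to 0.20 for *psmd11* ENSDARG00000060150, -0.25 to 0.11 for *psmd12*, -0.0097 to 0.16 for *psmd13*, -0.21 to 0.043 for *psmd2* ENSDARG00000099653, -0.063 to 0.14 for *psmd3*, -0.11 to 0.092 for *psmd4b*, -0.027 to 0.23 for *psmd6*, -0.038 to 0.18 for *psmd7* and -0.053 to 0.22 for *psmd8*. The share of *psmc1* in its pair differed by -0.092 to 2.89 points.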
